A study of Mus musculus with 6 samples.

Results

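The 9 homeobox genes studied here, all of the TALE class, were followed from embryonic stem cells to neural progenitors in mouse cell culture. They are Meis1, Meis2, Meis3, Pbx2, Pbx3, Pbx4, Pknox1, Pknox2 and Tgif1. The members were chosen by name, with earlier results of these data known. Of the 55681 probes of a single-colour Agilent array, 13 carry 1 of these 9 gene symbols in the platform annotation. The annotation names 21893 genes. All samples came from 1 ES cell line, 46c (sox1-gfp), of strain 129/Ola, in which GFP is driven by the neural gene Sox1. The ESC group holds 3 arrays of undifferentiated cells, and the NPC group holds 3 arrays of cells sorted by FACS on GFP after 5 days of differentiation with NB27 and Neuro2 medium supplements. Which side of the GFP gate was collected is not in the labels, and no further genotype or treatment was given. Arrays of 1 group stand for biological replicates, per the design text. Both groups are mixtures of cells measured in bulk, so fewer cells of a type and less RNA per cell cannot be told apart.

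TALE homeodomains carry a short insertion in the loop between the first and the second helix. Pbx proteins bind DNA together with Hox proteins and raise the selectivity of those partners, while Meis and Pknox (Prep) proteins bind Pbx through a separate domain and hold it in the nucleus. In the hindbrain and spinal cord of vertebrate embryos, complexes of Hox, Pbx and Meis or Pknox drive segment-specific genes, including Hox genes themselves. Tgif1 is a TALE repressor of another branch, which recruits corepressors to Smad proteins and to retinoid X receptor sites.

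Each value below is the log2 signal of 1 probe on 1 array, on the authors' quantile-normalised scale, whose median was 5.32 on every array and whose range was 1.03 to 16.18. Changes are NPC minus ESC in log2 units ± SE with n = 3 arrays per group. A change was called where limma's p, adjusted by the Benjamini-Hochberg method over all 55681 probes, was under 0.05. It is not known which probes were above background, and 3 arrays per group limit the precision. The share of all probes whose groups do not overlap is not given here, so a lack of overlap only describes a probe. The arrays matched their labels. The ES cell factor gene Pou5f1 read 14.42 ± 0.52 (SD) in ESC and 6.67 ± 0.27 in NPC, and all 6 of 6 ES cell markers fell. Sox1, which drove the sort and is therefore no finding, read 7.83 ± 0.53 and 10.83 ± 0.54. Of 6 neural progenitor markers 5 were higher in NPC, and Sox1 is 1 of these 5. Array 3 was the least like array 2 in both groups: arrays 2 and 3 correlated with r = 0.918 in ESC and 0.915 in NPC across probes, against 0.963 and 0.931 for arrays 1 and 3 and 0.975 and 0.979 for arrays 1 and 2. Member results that turn on these arrays are given with and without them.

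Meis1, Meis2, Pknox2 and Pbx3 rose during differentiation, a weaker rise of Meis3 rested on 1 of its 3 probes, and Tgif1 fell. The calls of Pknox2 and Tgif1 were less stable. They were kept in 3 and 2 of the 6 fits that each leave out an array, and both were lost with values under 6 set to 6. Pbx2 did not pass over all 6 arrays unless the replicate numbers were a block, and Pbx4 and Pknox1 did not pass. Of the 13 probes, 6 were called higher in NPC (46.2%) and 1 lower (7.69%), whereas of all probes 6.08% were called higher and 5.43% lower. Counted by the probe of highest mean per gene, 4 of 9 genes were higher and 1 was lower, against 9.18% and 7.92% of all named genes. The median change was 1.97 over the 9 genes and 0.01 over all named genes, and the median absolute change was 1.97 and 0.52. With the replicate block, 7 of the 13 probes were called higher and 1 lower, against 10.7% and 9.5% of all probes. Because the members were chosen with earlier results of these data known, these shares describe the set and test nothing.

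**Figure D1:**
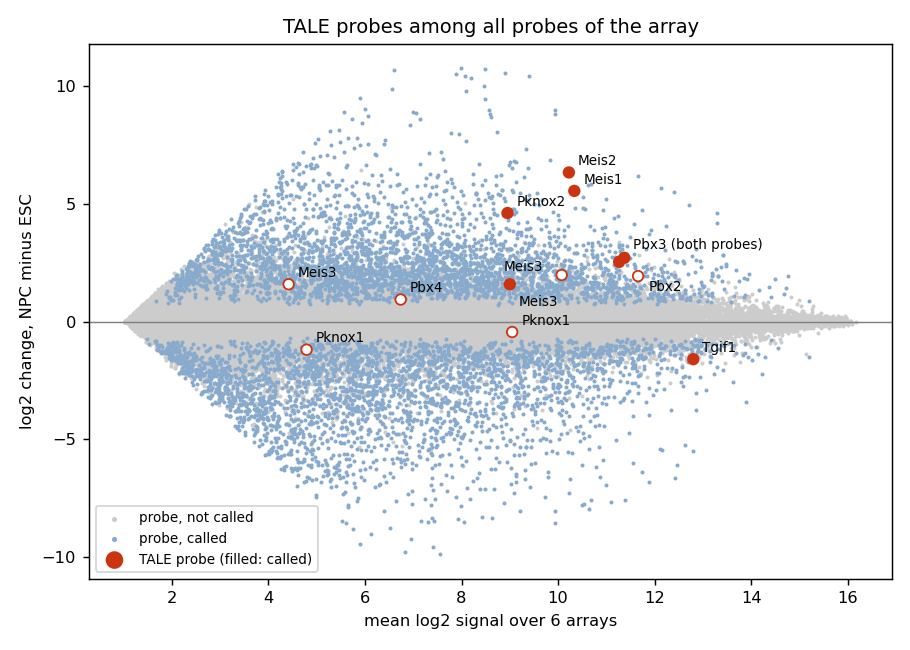
Log2 change (NPC minus ESC) against the mean log2 signal over 6 arrays for all 55681 probes, called probes in blue, with the 13 TALE probes in red (filled where called). The probes of Meis2, Meis1 and Pknox2 lie highest among the TALE probes, and Tgif1 is the 1 called TALE probe below 0.

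The largest changes were in Meis1 and Meis2, whose proteins bind Pbx and, with it, Hox proteins. Meis1 (probe A_55_P1995572) read 7.44, 8.20 and 7.06 on ESC arrays 1, 2 and 3, and 13.46, 13.51 and 12.36 on the NPC arrays. The groups did not overlap, and array 3 was the lowest of both groups. The rise was 5.54 ± 0.45, or 46.5-fold (adjusted p = 0.00163). Meis2 (probe A_55_P2047155), also known as a gene induced by retinoic acid in embryonal carcinoma cells, read 6.38, 7.22 and 7.60 in ESC and 13.37, 13.06 and 13.73 in NPC. The groups lay far apart, and here array 3 was the highest of both. The rise was 6.32 ± 0.38, or 80.0-fold (adjusted p = 0.000632). With each array left out in turn, both genes passed in 6 of 6 fits, with highest adjusted p-values of 0.0153 for Meis1 and 0.0079 for Meis2.

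The promoters of these strongest risers are shown because both genes rose, by the largest changes of the 9 members. RefSeq promoter windows of assembly GRCm38.p6, from 250 bases before to 50 after a transcript start, were held for 6 of the 9 genes in 10 windows. They were searched on both strands for TGACAG, a Meis and Tgif type core, TGATNNAT, a Pbx and Hox type composite, and AGGTCA, a retinoic acid receptor core. None of the 3 motifs overlaps another in the windows printed here, and matches are in capitals. Among all 32851 windows of 300 bases in the table, 19.2% held TGACAG, 8.85% held TGATNNAT and 16.3% held AGGTCA. The windows of Meis1 (chr11:19018920-19019219, minus strand) and Meis2 (chr2:116064570-116064869, minus strand) hold none of the 3, so no letter is in capitals. They hold 15 and 13 CpG dinucleotides, against a median of 7 over all windows. Of all windows, 65.4% and 62.1% hold fewer, so these counts are not unusual.
Meis1: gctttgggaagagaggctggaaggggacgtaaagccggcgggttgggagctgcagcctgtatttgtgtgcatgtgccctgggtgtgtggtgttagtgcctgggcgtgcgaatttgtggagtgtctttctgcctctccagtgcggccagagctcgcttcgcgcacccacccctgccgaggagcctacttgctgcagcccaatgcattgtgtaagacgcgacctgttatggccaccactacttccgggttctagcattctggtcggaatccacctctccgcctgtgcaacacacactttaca
Meis2: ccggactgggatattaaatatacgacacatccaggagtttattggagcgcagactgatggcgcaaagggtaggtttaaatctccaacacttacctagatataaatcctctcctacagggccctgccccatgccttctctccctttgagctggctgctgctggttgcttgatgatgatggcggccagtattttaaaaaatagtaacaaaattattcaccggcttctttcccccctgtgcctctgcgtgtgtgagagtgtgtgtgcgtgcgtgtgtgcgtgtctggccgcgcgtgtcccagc

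Meis3, the remaining Meis paralog, gave unlike values by probe. The probe of highest mean, A_55_P2005248, read 9.23, 9.46 and 8.58 in ESC and 11.85, 12.16 and 9.17 in NPC. NPC array 3 lay within the ESC values, and the difference of 1.97 ± 0.85 did not pass (adjusted p = 0.253). Probe A_55_P2136101 read 8.29, 8.05 and 8.29 in ESC and 10.08, 10.00 and 9.29 in NPC. These groups did not overlap, and the rise was 1.58 ± 0.27 (adjusted p = 0.0186), a call kept in 1 of the 6 fits that each leave out an array (adjusted p up to 0.0824, reached without ESC replicate 1) and lost under housekeeping scaling (adjusted p = 0.254). The dimmest probe, A_55_P2185940, read 3.23, 2.90 and 4.76 in ESC and 4.45, 3.30 and 7.88 in NPC, so that here array 3 was the highest of both groups (adjusted p = 0.572). Array 3 of NPC thus stood low for the first probe and high for the last, although both are named as the same gene. Without both arrays numbered 3, the probe of highest mean gave 2.67 and passed (adjusted p = 0.0143). With the mean of all 3 probes the gene gave 1.71 and passed by limma (adjusted p = 0.00276 over 21893 genes). On NPC array 3 the probes deviated from their group means by -1.89, -0.50 and 2.67. These deviations partly cancel in the mean of probes, so its small spread adds no support for a rise.

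**Figure D2:**
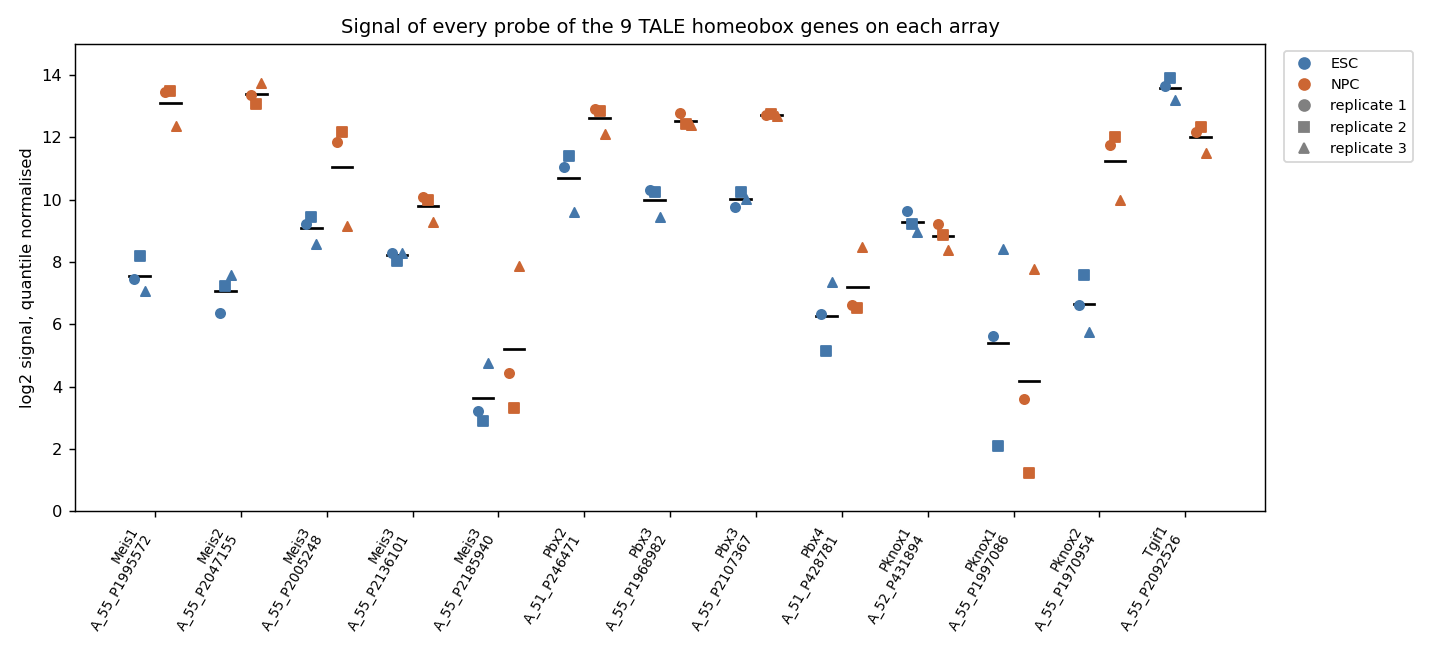
Log2 signal (vertical axis) of each of the 13 probes on each array, ESC in blue and NPC in orange, with the symbol giving the replicate number and the bar the group mean. Meis1, Meis2, Pbx2, Pbx3, Pknox2, Tgif1 and 1 Meis3 probe separate fully between groups. Array 3 of NPC is low for 1 Meis3 probe and high for another.

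Among the Pbx genes, which encode the direct DNA-binding partners of Hox proteins, Pbx3 rose and its probes gave like values. Probe A_55_P2107367 read 9.78, 10.26 and 10.03 in ESC and 12.72, 12.75 and 12.70 in NPC, a rise of 2.70 ± 0.19 (adjusted p = 0.0011). Probe A_55_P1968982 read 10.30, 10.25 and 9.44 in ESC and 12.78, 12.43 and 12.39 in NPC, a rise of 2.53 ± 0.30 (adjusted p = 0.00535). For both probes every NPC array was above every ESC array, and the 3 NPC values of the first differed by little (SD 0.03). The call of the second probe ended with housekeeping scaling (adjusted p = 0.0509).

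Pbx2 encodes a widely expressed member of the subfamily. Its probe A_51_P246471 read 11.06, 11.42 and 9.60 in ESC and 12.90, 12.85 and 12.11 in NPC. The groups did not overlap, but ESC array 3 lay well below the other ESC arrays, and the difference of 1.93 ± 0.54 did not pass (adjusted p = 0.0887). Within replicate numbers the differences were 1.85, 1.43 and 2.50, and with the block the gene passed (1.93 ± 0.26, adjusted p = 0.018). Without both arrays numbered 3 it passed as well, with 1.64 (adjusted p = 0.0303). Pbx4 (probe A_51_P428781), known in the mouse chiefly from the testis, read 6.33, 5.14 and 7.36 in ESC and 6.63, 6.52 and 8.47 in NPC. The groups overlapped, array 3 was the highest of both, and the difference was 0.93 ± 0.78 (adjusted p = 0.588, and 0.0931 with the block).

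The Pknox genes encode the Prep proteins, which bind Pbx through the same kind of domain as Meis proteins. Pknox2 (probe A_55_P1970954) read 6.61, 7.58 and 5.76 in ESC and 11.75, 12.02 and 9.99 in NPC. The groups lay apart, with array 3 the lowest of both, and the rise was 4.60 ± 0.71, or 24.3-fold (adjusted p = 0.0132, and 0.00309 with the block). With 1 array left out it passed in 3 of 6 fits. It was lost without NPC replicate 1 (adjusted p = 0.0678), ESC replicate 1 (0.0658) or NPC replicate 2 (0.0518). A floor of 6 on all values also ended it (4.52, adjusted p = 0.0545). Pknox1, the broadly expressed paralog needed in early mouse development, read 9.64, 9.21 and 8.96 in ESC and 9.22, 8.88 and 8.38 in NPC by probe A_52_P431894. The groups overlapped, and the difference was -0.44 ± 0.31 (adjusted p = 0.499). Its dimmer probe A_55_P1997086 read 5.64, 2.11 and 8.42 in ESC and 3.59, 1.22 and 7.78 in NPC, and so followed the replicate number more than the group (-1.19 ± 2.24, adjusted p = 0.844). It kept no sign: without ESC replicate 3 the difference was 0.32 and without NPC replicate 2 it was 0.30.

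**Figure D3:**
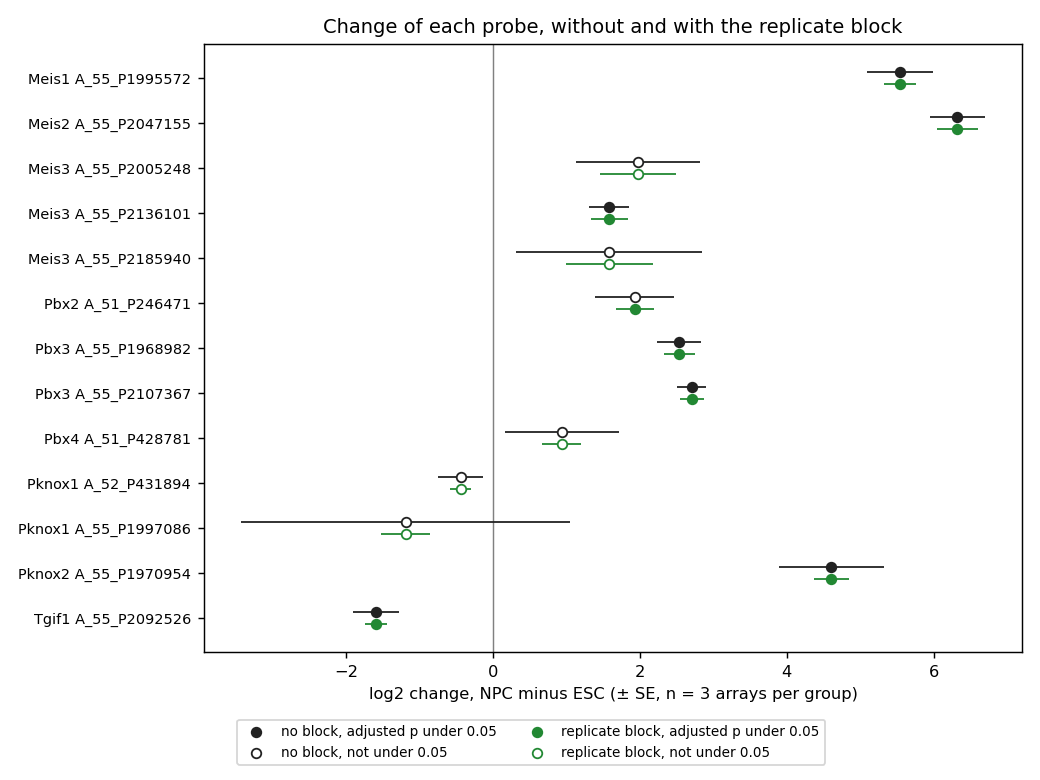
Log2 change of each of the 13 probes (horizontal axis, NPC minus ESC) with SE bars, without a block in black and with the replicate number as a block in green, filled where the adjusted p was under 0.05. Pbx2 is the 1 probe whose call differs between the fits.

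Tgif1, the repressor, was the 1 member that fell. Its probe A_55_P2092526 read 13.66, 13.92 and 13.21 in ESC and 12.17, 12.34 and 11.49 in NPC. Every NPC array was below every ESC array, and the change was -1.60 ± 0.32, a 3.02-fold difference (adjusted p = 0.0316, and 0.00755 with the block). Within replicate numbers the changes were -1.49, -1.57 and -1.73. With 1 array left out it passed in 2 of 6 fits. It was lost without ESC replicate 1 (adjusted p = 0.131) or 2 (0.094) and without NPC replicate 1 (0.0956) or 2 (0.0637). Housekeeping scaling (-1.68, adjusted p = 0.253) and a floor of 6 on all values (adjusted p = 0.0853) ended the call too, although no Tgif1 value lay under 6 and its change stayed at -1.60 with the floor.

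RefSeq lists 5 start windows for Tgif1, all on the minus strand of chromosome 17. The window at chr17:70849741-70850040 is shown because it was the 1 member window with a TGATNNAT match, and it also holds AGGTCA. The window at chr17:70851161-70851460 is shown for a TGACAG match, which a further Tgif1 window holds too. Capitals mark these matches.
Tgif1 70849741: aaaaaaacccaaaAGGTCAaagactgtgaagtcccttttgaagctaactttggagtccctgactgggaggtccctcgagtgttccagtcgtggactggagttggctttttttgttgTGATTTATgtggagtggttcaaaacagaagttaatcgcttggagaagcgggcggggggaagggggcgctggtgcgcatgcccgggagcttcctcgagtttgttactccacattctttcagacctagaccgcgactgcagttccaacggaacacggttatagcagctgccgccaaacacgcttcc
Tgif1 70851161: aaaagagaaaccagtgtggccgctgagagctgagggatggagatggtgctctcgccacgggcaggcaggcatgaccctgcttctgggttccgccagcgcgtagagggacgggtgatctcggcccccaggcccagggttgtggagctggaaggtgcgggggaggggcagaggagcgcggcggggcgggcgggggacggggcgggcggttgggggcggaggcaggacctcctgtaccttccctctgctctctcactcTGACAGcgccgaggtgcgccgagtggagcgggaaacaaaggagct
The windows of Meis3, Pbx2 and Pbx4 hold none of the 3 motifs. A match or its lack describes these letters only, at shares that are common among all promoters.

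Members of 1 subfamily were then compared within arrays, as the difference between the log2 signals of 2 genes on each array (each by its probe of highest mean). Only the shift of this difference between groups has a meaning, since probes differ in brightness. Pknox2 gained on Pknox1 by 5.05 ± 0.67: relative to the ESC mean the ESC arrays lay at -0.41, 0.99 and -0.58 and the NPC arrays at 5.15, 5.76 and 4.23. Meis3 lost against Meis1, with a shift of -3.57 ± 0.60, the ESC arrays at 0.26, -0.26 and 0.00 and the NPC arrays at -3.12, -2.86 and -4.71. In both pairs the groups did not overlap, and the exact two-sided permutation p of 0.1 (0.2 adjusted over the 4 pairs) is the smallest that 3 against 3 arrays allow, so neither pair could pass. For Meis2 against Meis1 the shift was 0.78 ± 0.76 (exact permutation p = 0.5), and for Pbx3 against Pbx2 it was 0.78 ± 0.60 (exact permutation p = 0.3). In these latter pairs the groups overlapped, which does not show that the genes of a pair moved alike.

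**Figure D4:**
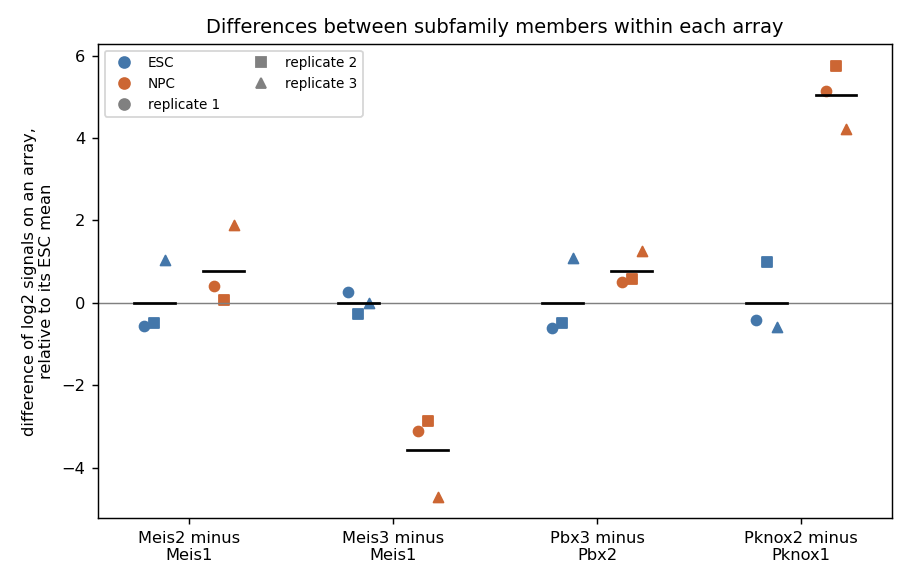
Difference between the log2 signals of 2 TALE genes on each array, relative to the mean of the ESC arrays (vertical axis), for 4 pairs, with ESC in blue, NPC in orange, the symbol giving the replicate number and bars for group means. The groups are apart for Meis3 minus Meis1 and Pknox2 minus Pknox1 and overlap for the other pairs.

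The Hox genes, whose products are the partners of Pbx and Meis proteins, were counted by paralog group, with no test between the groups. Of groups 1 to 4, 7 of 11 measured genes were called higher in NPC and 0 lower by limma (9 and 0 at an unadjusted p under 0.05), with a median change of 5.06. Hoxb2, a gene of the hindbrain, rose by 9.99 ± 0.18 and Hoxb3 by 8.90 ± 0.29, from ESC means of 3.46 and 1.12, near the bottom of the scale. With values under 6 set to 6 their changes were 7.46 and 4.02. Of groups 5 to 8, 3 of 11 were higher and 0 lower (4 and 0 unadjusted), with a median of 0.36, among them Hoxb8 (8.11 ± 0.39) and Hoxb7 (3.36 ± 0.27), from ESC means of 1.41 and 3.78. With the floor of 6 these were 3.53 and 1.14, and Hoxb7 did not pass (adjusted p = 0.112). Of groups 9 to 13, 0 of 16 were higher and 3 lower (2 and 4 unadjusted), with a median of 0.16. Hoxd13 changed by -2.80 ± 0.63 and Hoxb13 by -2.50 ± 0.35, from ESC means of 4.90 and 3.97. With values under 6 set to 6, the calls were 4 higher in groups 1 to 4, 1 higher in groups 5 to 8 and 0 lower in groups 9 to 13. With probes under a mean of 6 left out they were 4, 0 and 0, and without NPC replicate 2 there was 1 lower in groups 9 to 13. Without NPC replicate 3 the calls were 9 higher, 4 higher and 2 lower. Without both arrays numbered 3 they were 9 higher, 3 higher and 2 lower.

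A list of 10 genes known as targets of Hox, Pbx and Meis proteins in the hindbrain had 8 measured genes, of which 6 were higher and 0 lower (6 and 0 unadjusted), with a median change of 5.19. Hoxb2 and Hoxa2 (8.88 ± 0.30, and 5.43 with the floor of 6) changed most, and 5 of the 8 are Hox genes that the lists above hold too. Of 10 other measured TALE homeobox genes, 4 were higher and 0 lower (4 and 1 unadjusted), with a median change of 0.07, and with the replicate block 1 was lower. The Iroquois factor genes Irx3 and Irx5 rose most, by 9.78 ± 0.54 and 7.77 ± 0.59, from ESC means of 3.20 and 1.95, and by 6.98 and 3.72 with the floor of 6. Of 17 retinoic acid genes, 4 were higher and 4 lower, with a median of 0.11. The lower genes were 2 with housekeeping scaling and without ESC replicate 1, NPC replicate 1 or NPC replicate 2. Cyp26b1, which breaks down retinoic acid, rose by 8.78 ± 0.28 (6.98 with the floor of 6), and Crabp1, which binds it in the cytoplasm, by 6.19 ± 0.38. The largest fall among the retinoic acid genes was in Stra8, which changed by -5.85 ± 0.50 (-1.83 with the floor of 6).

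In the list around Tgif1, of Smad proteins, corepressors and genes of the Nodal pathway that Smads serve, 2 of 14 measured genes were higher and 6 lower, with a median of -0.94. Lefty1, an extracellular inhibitor of Nodal, changed by -5.32 ± 0.66, and the ligand gene Nodal by -4.28 ± 0.22. Both belong to the Nodal pathway, whereas the 2 higher genes are a Smad gene and a corepressor gene. Called genes of the Nodal pathway were all lower, whereas Smad and corepressor genes were called in both directions. The median of the list therefore does not describe the Smads and corepressors. With housekeeping scaling the counts were 1 higher and 3 lower, and without ESC replicate 1 there were 3 lower. The lists were described by counts and medians, with no test of a list. For comparison, 9.18% of all named genes were called higher and 7.92% lower.

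**Figure D5:**
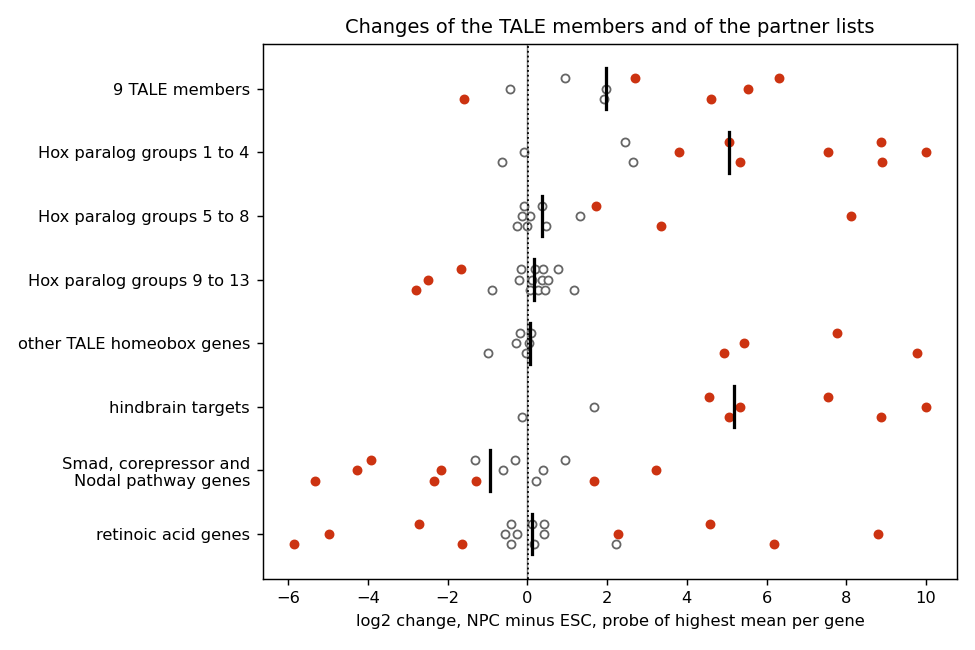
Log2 change (horizontal axis, NPC minus ESC) of the 9 TALE members and of the genes of 7 lists, each gene by its probe of highest mean, red where called, with a bar at each list's median and a dotted line at the median of all named genes. Early Hox groups and hindbrain targets have medians of 5.06 and 5.19, against 1.97 for the TALE members.

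Several cell types other than neural progenitors use Meis and Pbx genes, and their markers were read on the same arrays. Of 6 neuronal markers 3 were higher in NPC, and their mean log2 signal ran from 8.13 to 8.93 in ESC and from 10.94 to 11.45 in NPC. Of 4 neural crest markers 2 were higher, Tfap2b and Snai2, with a mean signal of 4.99 to 5.23 in ESC and 6.92 to 7.42 in NPC. Tfap2b rose from an ESC mean of 1.10, at the bottom of the scale, to 7.45. With values under 6 set to 6 its change was 1.45 and did not pass by limma (adjusted p = 0.0881), while Snai2 passed (adjusted p = 0.0341). The crest factor gene Sox10 read 7.35 and 7.27. Of 5 mesoderm markers 1 was higher and 1 lower, with mean signals of 5.47 to 6.21 and 5.25 to 5.82, and of 6 fibroblast markers 1 was higher and 1 lower, with 5.47 to 5.70 and 5.64 to 6.08. Of 5 endoderm markers 1 was higher and 1 lower (4.84 to 5.25 and 5.02 to 5.49), and of 4 trophectoderm markers 2 were lower (5.66 to 6.01 and 3.86 to 4.21). The endoderm list mean hides opposite changes: Foxa2 rose by 5.69 ± 0.35 (4.23 with the floor of 6). Sox7 changed by -2.81 ± 0.59 from an ESC mean of 5.17. With the replicate block 5 neuronal and 3 fibroblast markers were higher, and 2 mesoderm and 2 endoderm markers were lower. The part of such cells in the changes of the TALE genes was not tested.

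For 1 gene of each subfamily, the genes with the most similar profile over the 6 arrays were found by the root mean square difference of log2 signals centred on each gene's mean, among 21884 other named genes. For Meis1 they were Rbmx (0.06) and Irx1 (0.13), which rose by 5.44 and 5.43. Rbmx has near-identical copies in the genome, and its probe may read more than 1 gene. For Pbx3 they were Cmtm3 (0.11) and Armcx3 (0.12), and for Tgif1 they were Kank2 (0.03) and Slc25a41 (0.07). For Pknox1 they were B230354K17Rik and 4930509E16Rik (both 0.09). With 6 arrays in 2 groups, likeness rests mostly on the size of the change and on the replicate numbers.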

How the data were processed

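Total RNA went through 1 round of amplification and was coupled to Cy3 for single-colour arrays, per the labels' protocols. The authors deposited log2 values of 55681 probes on 6 arrays; the base was taken as 2 from the range. The sorted values of all columns were identical, so the deposited log2 values had been quantile normalised. The submitters' processing notes name limma; the sources used here do not say how background was treated. Probes were named through the platform annotation (30626 with 1 symbol, 0 with several, 25055 unnamed).

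NPC and ESC were compared on all probes with the lmFit and eBayes functions of limma 3.58.1 (R 4.3.3), two-sided, without covariates, and the script was tested on simulated data. The groups come from the sample titles. Same-numbered arrays deviated together from their group means (r = 0.269, 0.725 and 0.784), all over 0.1, so the replicate number was treated as a possible pairing. NPC array 1 deviated more like ESC array 2 (r = 0.433) than like ESC array 1, so a pairing of the arrays numbered 1 is not established. The number was used as a block in an alternative fit. Other alternatives were a floor of 6, a minimum mean of 6, scaling on the median of 11 housekeeping genes, a mean-dependent prior, other ways to join probes, and leaving out arrays. That median was the value of Pgk1 on every array, from 14.42 (ESC array 2) to 15.60 (NPC array 3). The housekeeping scaling therefore rests on the Pgk1 probe alone, and calls lost under it may reflect the spread of that probe. The members and lists were chosen with earlier results of these data known. Genes named are all members, the 2 largest called changes of each list, the 2 nearest profiles of 4 members, and Sox1 and Pou5f1 as a check. Sox10, Stra8, Pbxip1, Tgif2 and Pgk1 were named after their values were seen.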

Additional observations from a re-analysis of the deposited data

How the results depend on the processing

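Among all probes, the calls of 3383 higher and 3024 lower became 5969 and 5287 with the replicate block, 1599 and 1534 with values under 6 set to 6, and 1384 and 1813 with housekeeping scaling. The shifts of that scaling followed the Pgk1 probe alone. With probes under a mean of 6 left out, 1837 were lower. Leaving out single arrays gave 1665 to 3629 higher and 1528 to 2795 lower, and 0 or 1 member probes and 0 or 1 member genes lower. Tgif1 was the member lost: 0 member probes and 0 member genes were lower with the floor of 6 and with housekeeping scaling. Meis1, Meis2 and Pbx3 probe A_55_P2107367 passed under every alternative run. The block changed no other member call than that of Pbx2. The dim probe A_55_P1997086 of Pknox1 reversed to 0.32 and 0.30 in 2 leave-one-out fits and lay between -2.98 and 0.32 over the 6. The causes were not tested. The fit without both arrays numbered 3 was chosen after seeing the data; it gave 8 member probes higher and 1 lower. Values near the bottom of the scale, with no known background, limit the dim probes most.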

Other observations

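Further cofactors, chosen after their values were seen, are given here as values. Pbxip1 encodes a protein that binds Pbx and can block its binding to Hox partners. It had 3 probes with nearly equal changes of 1.62 ± 0.47, 1.65 ± 0.44 and 1.64 ± 0.23. The last of these passed by limma (adjusted p = 0.00963), and the others passed with the replicate block (adjusted p = 0.00918 and 0.0114). Tgif2, the paralog of Tgif1, had 3 probes with changes of 0.04 ± 0.60, -0.20 ± 0.64 and -0.78 ± 1.25, and none passed by limma (lowest adjusted p 0.808).

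The array numbered 3 lay more than 2 log2 units above the mean of arrays 1 and 2 in both ESC and NPC for 2354 of 55681 probes (4.23%), and more than 2 below in both for 1085 (1.95%). Of the 13 TALE probes, 1 was above in both, Pknox1 probe A_55_P1997086.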
